A study of Mus musculus with 12 samples.

Results

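Inguinal white adipose tissue (iWAT) of cold-acclimated bBMKO mice was compared with that of cold-acclimated bBMCtr mice, gene by gene, in 6 of the 12 RNA-seq libraries of the series. The members were chosen by their labels alone: 3 libraries labelled cold bBMKO and 3 labelled cold bBMCtr. The labels number the libraries of a group but do not tie them to animals, so p-values measure the spread between libraries, which may be technical. The study's legends give n = 3 per group for its RNA-seq. All 15413 of 24091 genes with a value over 0.1 FPKM (fragments per kilobase of transcript, scaled for depth) in at least 50% of the 12 libraries were tested. bBMKO mice carried floxed Bmal1 alleles and the Prx1-Cre transgene, and bBMCtr mice were littermates with the same floxed alleles and no Cre, both on a C57BL/6 background. Both groups were kept at 10 °C for 2 weeks, and the study's methods give an age of 10 to 12 weeks for cold acclimation. The other 6 libraries came from the same genotypes at ambient temperature, 22 °C in the labels. Prx1-Cre is active in the fat progenitors and mature fat cells of subcutaneous depots and spares visceral and brown fat. The dissected pad also holds cells that do not descend from them.

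Bmal1, encoded by Arntl, is the core activator of the circadian clock. It pairs with Clock or Npas2 on E-box sequences and switches on its own repressors, the Per and Cry genes and the nuclear receptors Nr1d1 and Nr1d2 (Rev-erb), along with output genes such as Dbp. Rev-erb proteins in turn repress, and Ror proteins activate, a set of genes that includes Arntl itself, Clock, Npas2, Cry1 and Nfil3. The inguinal pad is the main subcutaneous depot of the mouse. Its fat cells can turn beige in the cold, when they gain mitochondria and the uncoupling protein Ucp1, and an inguinal lymph node lies embedded in it. A bulk sample of this pad therefore reads fat cells and lymphocytes together, and in such a sample fewer cells of a type and less RNA per cell cannot be told apart.

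The cold libraries held 18503247 to 20040304 counts each. Below, rose and fell are used of genes that changed over 1.5-fold with p under 0.05 and, after Benjamini-Hochberg adjustment, under 0.25, in edgeR's quasi-likelihood test. By this rule 3513 genes (22.8% of those tested) differed, of which 1491 (9.67%) were higher and 2022 (13.1%) lower in bBMKO. The groups did not overlap, with bBMKO above, for 4577 genes (29.7%), and with bBMKO below for 4139 (26.9%). The share of higher calls was 42.4% with TMM factors (edgeR's default scaling), 20.6% with library size alone, 22.8% with limma on the deposited log2 FPKM, and 3.34% when the libraries were scaled to 38 fat cell identity genes. That last scaling moved the median log2 fold change of all genes from 0.05 to -0.60, so the change of the fat cell class is also given relative to this median.

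Markers of 2 further tissues differed between the cold libraries. The mean log2 CPM (CPM, counts scaled to a common TMM-corrected library size) of 39 B and T cell genes was 5.74, 6.07 and 5.45 in the bBMCtr libraries and 1.84, 0.56 and 1.16 in the bBMKO libraries. Thus each of the bBMCtr libraries held lymphocyte RNA at a level that none of the bBMKO libraries reached. At ambient temperature the same mean was 6.25, 5.0 and 1.07 in bBMCtr and 1.08, 1.56 and 4.56 in bBMKO, so that high and low libraries occurred in both genotypes. Skeletal muscle genes, a sign of muscle fibres at the edge of the pad, had mean log2 CPM of 2.20, 3.94 and 6.33 in cold bBMCtr and 5.87, 7.77 and 5.92 in cold bBMKO, and the groups overlapped. Summed over the list, muscle genes reached 255 to 7604 CPM in bBMCtr and 4212 to 11880 CPM in bBMKO. Of its 23 genes 4 rose, against 9.67% of all genes, and these calls were lost without bBMCtr replicate 1. They were also lost with the lymphocyte mean as a covariate over all 12 libraries, which took the median log2 fold change of the list from 1.30 to -3.05. Values given below with the lymphocyte covariate therefore also depend on muscle RNA. The mean of the mammary epithelium list lay between -1.21 and -0.27 in the cold libraries, against 5.34 to 6.10 in the ambient ones. All 6 cold libraries had the Y-linked gene Ddx3y at 97.3 to 128 CPM and Xist at 2.99 CPM or less, so the cold comparison does not mix the sexes, while temperature and sex cannot be told apart across the series.

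**Figure D1:**
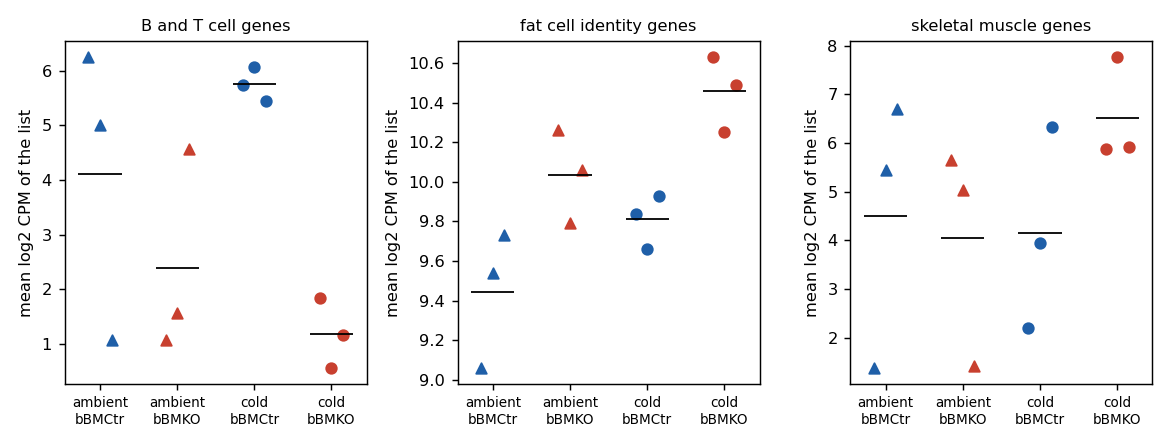
Mean log2 CPM of the B and T cell list (left), the fat cell identity list (middle) and the skeletal muscle list (right) in each of the 12 libraries, grouped by temperature and genotype. Triangles are ambient and circles cold libraries, blue is bBMCtr and red bBMKO, and bars are group means. The 3 cold bBMCtr libraries lie between 5.45 and 6.07 for lymphocyte genes and the 3 cold bBMKO libraries between 0.56 and 1.84.

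Clock genes changed in both directions. A legend of the study gives ZT3, early in the light phase, for its ambient comparison of the genotypes. Without a series of times, a shift in phase and a change in level cannot be told apart in these rhythmic genes. Of 24 clock genes tested, 8 rose and 8 fell in cold bBMKO iWAT, against the 22.8% of all genes that were called. Npas2, the partner of Bmal1 that can stand in for Clock, was read at 0.906, 0.469 and 0.533 CPM in the 3 cold bBMCtr libraries and at 74.7, 58.3 and 66.2 CPM in the 3 cold bBMKO libraries, a log2 fold change of 6.69 (SE 0.21, adjusted p = 1.62e-07). It had the smallest p of all genes and lies at chr1:39194272-39363240 of mm10. Clock itself stood at 71.7, 65.6 and 73.5 CPM in bBMCtr and 185, 173 and 198 CPM in bBMKO, which is a change of 1.40 (SE 0.08, adjusted p = 1.13e-05). In neither gene did any library of a group come near the other group.

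Further clock genes rose as well. Cry1, a repressor of Bmal1 and Clock, measured 19, 22.6 and 21.1 CPM in bBMCtr and 74.3, 59.1 and 60.1 CPM in bBMKO and rose by 1.62 (SE 0.13, adjusted p = 7.85e-05). Nfil3, a repressor that competes with Dbp, went from 10.5, 7.55 and 10.1 CPM to 45.7, 44.1 and 58.5 CPM, an increase of 2.40 (SE 0.22, adjusted p = 0.000138). All bBMKO libraries lay above all bBMCtr libraries in both genes. Arntl rose by 1.33, but its counts pool all exons, those outside the floxed part included, and so tell nothing of the deletion or of how the libraries were labelled. Cry2 rose by 0.67 and was just under the 1.5-fold limit, and so not called, without bBMKO replicate 2 (0.58). Noct, a phosphatase under clock control that is counted with the fat cell genes here because the study listed it for fat cell differentiation, rose by 1.8 (SE 0.19, adjusted p = 0.000361).

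The 8 clock genes that fell were repressors and output genes of the clock. Nr1d2 was at 143, 132 and 152 CPM in bBMCtr and at 54.7, 53.8 and 47.1 CPM in bBMKO, and it fell by 1.46 on the log2 scale (SE 0.09, adjusted p = 1.25e-05). Ciart, a repressor of Bmal1 with a strong daily rhythm, dropped from 13.1, 12.2 and 14 CPM to 3.1, 3.33 and 3.5 CPM and fell by 1.99 (SE 0.17, adjusted p = 0.000112). Per3 fell by 1.67, from 258, 198 and 258 CPM to 75.9, 79.1 and 69.6 CPM. The 3 related output factors moved together in unequal amounts, with log2 fold changes of -1.67 for Dbp, -1.42 for Hlf and -0.86 for Tef. Nr1d1 fell by 1.58 (adjusted p = 6.94e-05), and Wee1, a kinase that holds back mitosis, by 1.21 (adjusted p = 0.00103). In these 8 genes the groups were separated without overlap.

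A further 8 clock genes did not pass the test, among them the other Per genes. Per1 had a log2 fold change of -0.30 and Per2 of -0.26, and their libraries overlapped between the groups. The repressors Bhlhe40 and Bhlhe41 had values of -0.59 and -0.49, Rora of 0.16 and Rorb of 0.50, which passed without bBMKO replicate 3 (0.75). Cipc and Usp2 stood at 0.06 and -0.07. With the lymphocyte mean as a covariate, 6 clock genes rose and 12 fell, and Npas2 kept a log2 fold change of 6.67, Nr1d2 of -1.52 and Ciart of -2.43. Scaled to fat cell identity genes, 5 rose and 14 fell, and Rora, Rorb and Cipc turned negative.

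**Figure D2:**
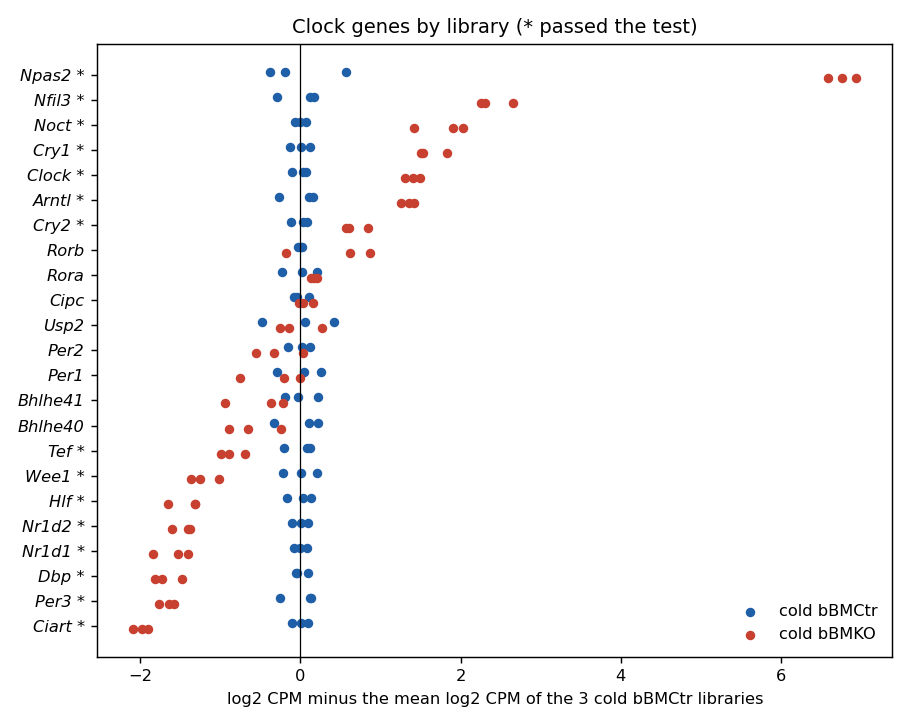
Log2 CPM of 23 clock genes in the 6 cold libraries, each minus the mean of the 3 cold bBMCtr libraries, with blue points for bBMCtr and red for bBMKO. Stars mark genes that passed the test. Npas2 lies far to the right with a log2 fold change of 6.69 and Ciart at the lower left with -1.99.

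Promoter sequences are shown because the direction of a clock gene is known to depend on which factor reads its promoter. The RefSeq promoter windows (GRCm38.p6, 250 bases before to 50 after a start) of the clock genes were searched for the E-box CACGTG, which reads the same on both strands. Of 24 clock genes 20 had a window, and 6 of these held the motif in at least 1 window, against 11.16% of all 11660 tested genes with a window and 7.15% of all 32851 windows. Among the clock genes that were called, Ciart, Cry1 and Tef held it, and Per1, Bhlhe41 and Cipc held it and were not called. Ciart, on the minus strand of chr3:95882179-95882478, held 3 copies, which begin 116, 58 and 44 bases before the start. Cry1, on the minus strand of chr10:85185005-85185304, held 1 copy beginning 60 bases before the start, and Tef, on the plus strand of chr15:81802423-81802722, held 1 copy beginning 127 bases before it. A second motif, TAGGTCA on either strand, the core of the sites that Ror and Rev-erb proteins bind, was searched for after the values had been seen. It occurred in 2.61% of all windows, in 2.33% of tested genes with a window and in 2 of the 20 clock genes with a window, Nfil3 (minus strand of chr13:52980990-52981289, 12 bases before the start) and Arntl (plus strand of chr7:113207261-113207560, 31 bases after it). Capitals mark the motifs, and each window is written 5′ to 3′ on the strand of its gene.
Ciart: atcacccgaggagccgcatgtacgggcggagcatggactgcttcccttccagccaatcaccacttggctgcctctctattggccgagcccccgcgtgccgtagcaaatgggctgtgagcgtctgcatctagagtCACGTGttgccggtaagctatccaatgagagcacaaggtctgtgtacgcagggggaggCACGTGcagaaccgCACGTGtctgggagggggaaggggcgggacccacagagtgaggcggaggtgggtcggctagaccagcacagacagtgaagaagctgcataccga
Cry1: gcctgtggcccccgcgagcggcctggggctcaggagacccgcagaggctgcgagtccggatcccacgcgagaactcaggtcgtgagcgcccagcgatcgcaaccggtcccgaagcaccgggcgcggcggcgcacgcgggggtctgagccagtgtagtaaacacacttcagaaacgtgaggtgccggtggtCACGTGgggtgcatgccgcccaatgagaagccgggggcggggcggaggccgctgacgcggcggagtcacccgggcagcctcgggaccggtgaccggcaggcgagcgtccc
Tef: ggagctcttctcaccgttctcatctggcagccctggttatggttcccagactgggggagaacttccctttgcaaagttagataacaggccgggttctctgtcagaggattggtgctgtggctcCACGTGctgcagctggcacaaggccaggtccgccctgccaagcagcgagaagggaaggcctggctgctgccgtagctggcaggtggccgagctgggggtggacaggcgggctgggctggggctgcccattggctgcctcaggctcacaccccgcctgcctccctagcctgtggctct
Nfil3: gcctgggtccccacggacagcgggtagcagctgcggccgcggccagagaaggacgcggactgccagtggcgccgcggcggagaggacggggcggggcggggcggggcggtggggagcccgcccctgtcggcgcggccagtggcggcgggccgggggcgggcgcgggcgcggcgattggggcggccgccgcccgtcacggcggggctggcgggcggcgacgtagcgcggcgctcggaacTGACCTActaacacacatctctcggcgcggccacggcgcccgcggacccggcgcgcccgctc
Arntl: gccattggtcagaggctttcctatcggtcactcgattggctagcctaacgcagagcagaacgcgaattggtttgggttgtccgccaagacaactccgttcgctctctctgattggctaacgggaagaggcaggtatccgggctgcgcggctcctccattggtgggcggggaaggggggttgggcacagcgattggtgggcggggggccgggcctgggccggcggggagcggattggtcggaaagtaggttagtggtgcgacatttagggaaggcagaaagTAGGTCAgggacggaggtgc

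The windows of Ciart and Tef belong to genes that fell, and those with the second motif to genes that rose, but Cry1 has an E-box and rose, and the other 3 genes with an E-box did not pass. A match is a description of the letters in a window and does not show a site in use. Over all tested genes with a window, the E-box was found in 11.03% of those called higher, 8.03% of those called lower and 11.7% of those not called. The second motif was found in 3.41%, 2.17% and 2.23% of them.

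Nearly all genes of the lymph node fell. Genes were counted as lymph node genes if they stood in lists of B cell, T cell, lymph node stroma, plasma cell or naive lymphocyte genes, or if their level followed the lymphocyte mean across the 6 ambient libraries alone (Pearson r of at least 0.9 and a slope of at least 0.3), which do not enter the cold comparison. Of 533 such genes 495 fell (92.9%, against 13.1% of all genes) and 1 rose, with a median log2 fold change of -3.03. In 516 of them the groups did not overlap, with bBMKO below. The class took 2.08%, 2.62% and 1.68% of all counts in the cold bBMCtr libraries and 0.423%, 0.445% and 0.416% in the cold bBMKO libraries. The 451 genes that entered only because they followed the lymphocyte mean had a median of -2.97, and 420 of them fell.

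**Figure D3:**
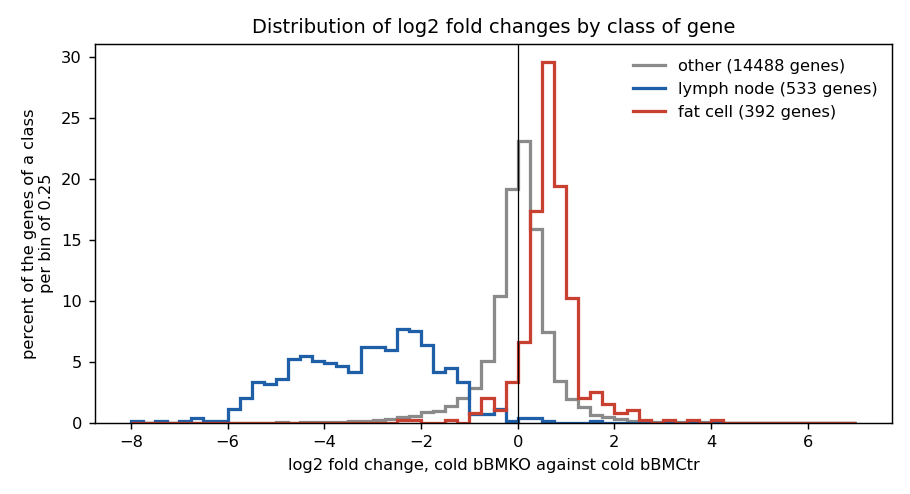
Distribution of the log2 fold changes of the 3 classes of genes, cold bBMKO against cold bBMCtr, as the percent of a class in each bin of 0.25. The blue line (lymph node, 533 genes) lies almost wholly below 0 around a median of -3.03, the red line (fat cell, 392 genes) mostly above it around 0.66, and the grey line (14488 other genes) around 0.05.

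B and T cell genes fell alike. All 20 T cell genes fell, with a median of -4.56 and a summed level of 880 to 1432 CPM in bBMCtr and 36.8 to 63.8 CPM in bBMKO, and 18 of 19 B cell genes fell, with a median of -5.24. The exception was Ebf1, a B cell factor that fat progenitors also use, at 224, 198 and 227 CPM in bBMCtr and 288, 298 and 277 CPM in bBMKO. Tcf7, a transcription factor of T cells, was at 108, 191 and 108 CPM in bBMCtr and 7.36, 3.21 and 4.55 CPM in bBMKO, a change of -4.75 (SE 1.12, adjusted p = 0.0124). Cr2, the complement receptor of B cells and follicular dendritic cells, measured 92.5, 100.2 and 54.9 CPM in bBMCtr and 1.87, 0.115 and 0.832 CPM in bBMKO and fell by 6.45 on the log2 scale (SE 1.65, adjusted p = 0.0159). The groups were far apart in Tcf7 and Cr2, and within bBMKO replicate 1 was the highest. Ltb, a cytokine that builds lymphoid tissue, changed by -5.07, the T cell receptor kinase Zap70 by -4.06, and Ptprc (CD45), found on all leukocytes, by -2.81.

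Genes of the node's own scaffold fell as well. Of 12 genes of lymph node stroma and high endothelial venules 11 fell, with a median of -2.25, and 7 did so without any one of the bBMKO libraries. Ccl19, the chemokine that draws T cells into the node, was at 5.84, 7.55 and 4.91 CPM in bBMCtr and 0.117, 0.0574 and 0.167 CPM in bBMKO. Madcam1, an address molecule on venules, was at 1.71, 2.06 and 0.854 CPM and 0.0584, 0 and 0.0555 CPM. Both were close to 0 in every bBMKO library, with 2, 1 and 3 counts for Ccl19 and 1, 0 and 1 counts for Madcam1, and the fitted change of Ccl19 was -5.66. Tnfsf11 (RANKL) fell by 5.05 and clusterin (Clu), a secreted chaperone, by 2.25. Prox1, which specifies lymphatic endothelium and followed the lymphocyte mean, fell by 3.69. Of 6 lymphatic endothelium genes 3 fell, against 13.1% of all genes, among them Mmrn1, which fell by 2.04.

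The genes with the smallest p of the class were led by Cytip, a regulator of leukocyte adhesion, at 73, 110.4 and 63 CPM in bBMCtr and 7.47, 6.49 and 7.27 CPM in bBMKO, a change of -3.54 (SE 0.45, adjusted p = 0.000862). B4galnt1, which makes gangliosides, was at 123, 164 and 103 CPM and 10.5, 11.9 and 8.66 CPM and changed by -3.65 (SE 0.50, adjusted p = 0.00126). Bcl6 was the only gene of the class to rise, a repressor known from germinal centres that other cells also make. Its level was 46.4, 52 and 50.1 CPM in bBMCtr and 48.1, 222 and 193 CPM in bBMKO, so that 1 bBMKO library lay among the bBMCtr libraries, and the change was 1.64 (SE 0.50, adjusted p = 0.0287). Nup210, a nuclear pore protein, fell by 3.24, Faah, which breaks down anandamide, by 3.69, and Ly75, an uptake receptor of dendritic cells, by 3.75. Bend5 fell by 3.50 and the lymphocyte semaphorin Sema4d by 2.80.

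With the lymphocyte mean as a covariate over all 12 libraries the median of the class moved from -3.03 to -0.19, and 50 genes fell and 10 rose. Of those that fell, 48 were among the 495. The covariate is the mean of 39 B and T cell genes of this class, and most other members were chosen for following it at ambient temperature. The move of the median was thus built into the fit and tests nothing. Cytip kept a change of -2.07, B4galnt1 of -2.19, Faah of -2.07 and Tnfsf11 of -4.15, while Cr2 no longer passed (-1.0), nor did Ltb (-0.26). Cr2 and Ltb are themselves among the genes of the covariate. In the cold libraries alone the lymphocyte level and the genotype label cannot be told apart, since every bBMCtr library was high and every bBMKO library low.

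Fat cell genes were higher in bBMKO. The class holds 392 genes of fat cell identity, fat cell transcription factors, thermogenesis, mitochondria and lipid metabolism, and 208 of them rose (53.1%, against 9.67% of all genes) while 10 fell. Their median log2 fold change was 0.66, and 31 of the 392 genes had a negative value. They took 13.8%, 12.3% and 15.2% of all counts in bBMCtr and 22.3%, 17.4% and 19.4% in bBMKO. Relative to the median of all genes the class stood at 0.61 with TMM factors and at 0.44 with the lymphocyte covariate. Scaled to fat cell identity genes its own median was -0.003 beside -0.60 for all genes, a distance that a change of scale leaves nearly as it was. Its median with the skeletal muscle mean as a covariate was 0.58, with 164 genes higher. The number of genes that rose was 120 without bBMKO replicate 1, 101 with library size alone, 65 with the lymphocyte covariate and 24 when scaled to fat cell identity genes. What part the lymphocyte RNA of the bBMCtr libraries has in these differences was not tested beyond the covariate.

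**Figure D4:**
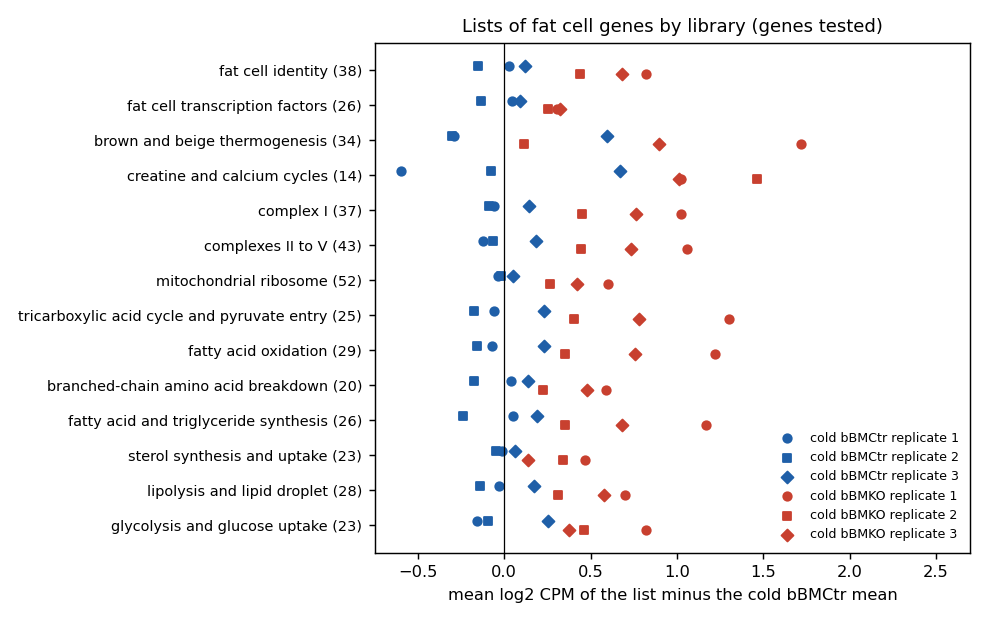
Mean log2 CPM of 14 lists of fat cell genes in each cold library, minus the mean of the 3 cold bBMCtr libraries, with the number of genes tested in brackets. Blue is bBMCtr and red bBMKO, and circles, squares and diamonds are replicates 1, 2 and 3. In most lists bBMKO replicate 1 lies farthest to the right and bBMKO replicate 2 closest to bBMCtr, and thermogenesis is the only list shown in which a bBMCtr library passes a bBMKO library.

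Among genes of fat cell identity 19 of 38 rose, with a median of 0.62, and 5 did with the lymphocyte covariate and 3 when scaled to the list itself. Adig (adipogenin), a small membrane protein of fat cells, was at 97.5, 83.2 and 97.4 CPM in bBMCtr and 230.5, 167 and 211 CPM in bBMKO, a change of 1.13 (SE 0.14, adjusted p = 0.000855). Acvr1c, the activin receptor that restrains lipolysis, rose by 1.20 (SE 0.21, adjusted p = 0.0034). Adipoq, the hormone adiponectin, was at 1915, 1641 and 1919 CPM and 2708, 2544 and 3076 CPM, which is a change of 0.61 (SE 0.21, adjusted p = 0.0483) that was lost on leaving out replicate 1 (0.61) or 2 (0.51) of bBMCtr or replicate 3 of bBMKO (0.53). The groups were apart in all 3 genes. The hormone leptin (Lep) was at 795, 685 and 862 CPM in bBMCtr and 431, 1197 and 647 CPM in bBMKO, and these values overlapped, with a change of -0.04 (SE 0.36, adjusted p = 0.942).

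The master factors of fat cells moved little. Pparg had a log2 fold change of 0.51 (SE 0.12, adjusted p = 0.013) and Cebpa of 0.46 (SE 0.12, adjusted p = 0.0158), with all bBMKO libraries above all bBMCtr libraries but a fold under 1.5. Prdm16 stood at 0.34 and Ppargc1a at 0.41, which also did not pass. Cebpb rose by 0.61, a call lost on leaving out replicate 2 (0.48) or 3 (0.62) of bBMCtr or replicate 1 of bBMKO (0.32). Of 26 transcription factors 5 rose, against 9.67% of all genes, and 1 did without bBMCtr replicate 2. All 5 calls were lost with the lymphocyte covariate. Gata3, which holds back fat cell formation and is also a T cell factor, was at 7.5, 10.1 and 6.24 CPM in bBMCtr and 1.52, 1.9 and 1.39 CPM in bBMKO and fell by 2.31 (SE 0.64, adjusted p = 0.0207). Its level did not follow the lymphocyte mean at ambient temperature (r of -0.282), and its change was -2.93 with the lymphocyte covariate.

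Thermogenic genes varied widely within each group. Ucp1 was at 7.85, 13.7 and 229 CPM in bBMCtr and at 1553, 55 and 400.0 CPM in bBMKO. Replicate 3 of bBMCtr lay above replicate 2 of bBMKO, and the change of 3.0 (SE 1.51, adjusted p = 0.145) did not pass the fold and p rule. It passed without bBMCtr replicate 3 (5.95) or bBMKO replicate 2 (3.55) and was 1.45 without bBMKO replicate 1. Cidea, a lipid droplet protein of brown and beige fat, was at 46.1, 38.9 and 72.8 CPM and 390.0, 30.8 and 130.4 CPM and passed at 1.81 (SE 0.76, adjusted p = 0.0883), with bBMKO replicate 2 below all bBMCtr libraries. Without bBMKO replicate 1 it stood at 0.62, without bBMCtr replicate 1 at 1.70 and without bBMCtr replicate 2 at 1.61, and it passed in none of these. The potassium channel Kcnk3 (36.6, 45.3 and 41.7 CPM against 189.5, 78.1 and 106 CPM) was separated between the groups and rose by 1.60 (SE 0.32, adjusted p = 0.00653). The cytochrome oxidase subunit Cox8b rose by 1.57 and by 0.97 without bBMKO replicate 1. Fgf21, a hormone of stressed and cold-exposed tissue, was at 0, 0.0469 and 0.0534 CPM in bBMCtr and 0.759, 0.344 and 0.277 CPM in bBMKO and rose from near 0, on 0, 1 and 1 counts against 13, 6 and 5 counts. Dio2, which activates thyroid hormone, had a value of 0.97 (SE 0.46, adjusted p = 0.127) and overlapped between the groups, but passed without bBMCtr replicate 3 (1.54) or bBMKO replicate 2 (1.19).

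In all, 13 of 34 thermogenic genes rose and 3 fell, against 9.67% of all genes higher and 13.1% lower. The number that rose was 5 without bBMKO replicate 1, 7 without bBMCtr replicate 2, 8 without bBMCtr replicate 1, 21 without bBMCtr replicate 3 and 22 without bBMKO replicate 2. Scaled to fat cell identity genes 6 rose and 4 fell, and with the lymphocyte covariate 3 rose and 1 fell. Nrg4, a growth factor that brown fat secretes, was 1 of the 3 that fell with TMM factors. It was at 202, 178 and 196 CPM in bBMCtr and 119, 103 and 118 CPM in bBMKO and fell by 0.76 (SE 0.24, adjusted p = 0.0352). The α1A-adrenergic receptor Adra1a, which relays noradrenaline, rose by 1.57. No library of either group overlapped with the other in Nrg4 or Adra1a.

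Most mitochondrial genes measured rose. Of 37 genes of complex I 35 rose, of 43 genes of complexes II to V 34, of 25 genes of the tricarboxylic acid cycle and pyruvate entry 23, and of 29 genes of fatty acid oxidation 22. Their medians were 0.76, 0.76, 0.77 and 0.82. Ndufb9, a subunit of complex I, was at 115, 119 and 136 CPM in bBMCtr and 309, 194 and 254 CPM in bBMKO, a change of 1.03 (SE 0.16, adjusted p = 0.00229). Mpc2, a subunit of the carrier that takes pyruvate into mitochondria, was at 92.7, 86.3 and 118 CPM and 335, 164 and 243 CPM and rose by 1.32 (SE 0.30, adjusted p = 0.0102). In both genes bBMKO replicate 1 was the highest and replicate 2 the lowest of its group, and all 3 lay above bBMCtr.

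Uqcrq of complex III rose by 1.14, Cox8a of complex IV by 0.83, Sucla2 of the tricarboxylic acid cycle by 1.44 and Crat, which moves acetyl groups onto carnitine, by 1.28. Genes of the mitochondrial ribosome had a smaller median of 0.44. Of 52 such genes 11 rose, against 9.67% of all genes, with the smallest p for Mrps34 at 0.65 (SE 0.07, adjusted p = 0.000232). For branched-chain amino acid breakdown 5 of 20 rose, against 9.67% of all genes, with Pccb at 0.77. This count was 10 without bBMCtr replicate 3 or without bBMKO replicate 2, 3 with the lymphocyte covariate, and lost when scaled to fat cell identity genes. Without bBMKO replicate 1 the counts were 20 for complex I, 17 for complexes II to V, 8 for the tricarboxylic acid cycle, 12 for fatty acid oxidation and 4 for the mitochondrial ribosome. The last count was 3 without bBMCtr replicate 1, 4 without bBMCtr replicate 2 and 18 without bBMKO replicate 2. The 5 counts were 15, 13, 3, 7 and 1 with the lymphocyte covariate, and scaled to fat cell identity genes 0, 2, 3, 2 and 0. The medians of the 5 lists with that covariate were 0.58, 0.61, 0.62, 0.76 and 0.33. For Crat the change was then 1.24 with an SE of 0.33, against an SE of 0.22 without the covariate. At an adjusted p under 0.05 with no fold minimum, 41 mitochondrial ribosome genes were higher.

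Fat synthesis genes also rose, and of the sterol genes more rose than fell with TMM factors. In the list for fatty acid and triglyceride synthesis 14 of 26 genes rose, but 6 without bBMKO replicate 1, 8 without bBMCtr replicate 2 and 9 without bBMCtr replicate 1. Only 2 rose with the lymphocyte covariate, and 5 when scaled to fat cell identity genes. Pnpla3, a lipid droplet enzyme that feeding induces, was at 655, 346 and 646 CPM in bBMCtr and 1419, 1666 and 1614 CPM in bBMKO, a change of 1.51 (SE 0.26, adjusted p = 0.00327). Gpat3, which starts triglyceride assembly, rose by 0.79. The desaturase Fads1, which makes long polyunsaturated fatty acids, was at 133, 123 and 152 CPM and 67, 75.8 and 69.4 CPM and fell by 0.94 (adjusted p = 0.00463). Both changes were free of overlap between the groups.

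Hmgcs1, which makes the building block of the mevalonate pathway, had the smallest p of the fat cell genes. It was at 147, 147 and 166 CPM in bBMCtr and 960.1, 868 and 913 CPM in bBMKO, a change of 2.57 (SE 0.11, adjusted p = 1.81e-06), and it kept a change of 1.92 when scaled to fat cell identity genes. The libraries of each group lay close together. Pmvk, a later enzyme of the same pathway, rose by 1.15. Srebf2, the transcription factor that drives the pathway, fell by 0.63 (adjusted p = 0.0101), and stood at -0.56, short of the fold limit, without bBMCtr replicate 2. Fdft1, the first enzyme that commits to sterols, fell by 0.63, and stood at -0.49 without bBMKO replicate 3, which did not pass. Of 23 sterol genes 7 rose and 2 fell, against 9.67% of all genes higher and 13.1% lower. Of these sterol genes 3 rose without bBMCtr replicate 2 or bBMKO replicate 1 and 4 without bBMCtr replicate 1. With the lymphocyte covariate 1 rose and 5 fell.

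Further fat cell genes rose across signalling and fuel choice. Ffar2, a receptor for short-chain fatty acids, was at 55.5, 52.2 and 48.6 CPM in bBMCtr and 137, 143 and 178 CPM in bBMKO, a change of 1.55 (SE 0.17, adjusted p = 0.000405). The phosphatase Dusp10 rose by 1.65 and the transcription factor Atf5 by 1.06. Pdk4, which shuts pyruvate out of oxidation, was at 71.8, 56.4 and 124 CPM and 658, 152 and 274 CPM and rose by 2.11 (SE 0.51, adjusted p = 0.013), or by 1.35 without bBMKO replicate 1. The groups did not overlap in these genes. Of 23 genes of glycolysis and glucose uptake 11 rose, such as lactate dehydrogenase Ldha by 0.81, and 7 rose without bBMKO replicate 1. Scaled to fat cell identity genes 1 rose, and with the lymphocyte covariate all 11 calls were lost.

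Of the 14488 genes in neither class 1282 rose and 1517 fell. Cdkn1a (p21), an inhibitor of the cell cycle, was at 17.2, 16.9 and 18 CPM in bBMCtr and 244, 264 and 289 CPM in bBMKO, a change of 3.93 (SE 0.19, adjusted p = 2.98e-06). Xrcc3, a protein of homologous recombination, was at 4.53, 3.33 and 3.79 CPM and 23.1, 19.4 and 22.7 CPM and rose by 2.48 (SE 0.14, adjusted p = 1.13e-05). In both genes the lowest bBMKO library was several times above the highest bBMCtr library. The folate carrier Slc19a1 was at 19.9, 18.6 and 18.6 CPM and 98.9, 75.4 and 93 CPM, a change of 2.23 (SE 0.13, adjusted p = 1.25e-05).

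The ubiquitin ligase Dtx4, a regulator of Notch signalling, went from 32.6, 34 and 30.2 CPM to 279, 344 and 336.4 CPM and rose by 3.31 (SE 0.22, adjusted p = 2.18e-05). Its relative Dtx2 rose by 1.43, Osgin1, which oxidative stress induces, by 2.34, and Ankrd50, which recycles membrane cargo from endosomes, by 1.06. In none of these 4 genes did a library of one group reach the other group. These genes and those above kept their calls with the lymphocyte covariate, at 3.99 for Cdkn1a, 2.47 for Xrcc3 and 3.11 for Dtx4. At ambient temperature they were higher in bBMKO too, Cdkn1a by 2.47 (adjusted p = 0.000142) and Dtx4 by 1.93 (adjusted p = 0.00084).

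Genes that fell with the smallest p outside the lymph node class are known from epithelia or cell junctions in several cases. Dsg2, a desmosomal cadherin, was at 10.2, 10.8 and 10.6 CPM in bBMCtr and 0.234, 0.344 and 0.167 CPM in bBMKO, a change of -5.37 (SE 0.24, adjusted p = 2.29e-06). Ly6d, a surface protein of squamous epithelium that early B cells also carry, was at 31.9, 38.7 and 26.6 CPM and 1.58, 0.517 and 0.832 CPM and fell by 5.05 (SE 0.33, adjusted p = 2.12e-05). Lad1, an anchoring protein of basement membranes, was at 7.5, 5.16 and 5.5 CPM and 0.35, 0.344 and 0.499 CPM and fell by 3.90 (SE 0.23, adjusted p = 1.22e-05). In these genes no bBMCtr library was under 5.16 CPM and no bBMKO library over 1.58 CPM. Vipr1, a receptor for vasoactive intestinal peptide, fell by 3.36, the polarity cadherin Celsr1 by 2.71, Ttc39a by 2.44 and the focal adhesion protein Tes by 1.79. Of the mammary epithelium list 2 of 17 genes fell and 1 rose, with a median of 0.60, against 13.1% and 9.67% of all genes. The mean of this list was near the floor in the cold libraries, and its median was 0.0058 with the lymphocyte covariate. Among its genes that fell was Epcam, an adhesion molecule of epithelia, at 1.71, 2.3 and 1.65 CPM and 0.292, 0.574 and 0.0555 CPM.

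The genotype effect on these 7 genes differed at ambient temperature. There Dsg2 was at 41.6, 45.5 and 56.5 CPM in bBMCtr and 38.7, 32.8 and 46.9 CPM in bBMKO, and Ly6d at 89, 62.9 and 63.5 CPM and 108, 84.3 and 113 CPM. These levels exceeded those of either cold group, and mammary epithelium genes were abundant in the ambient libraries. The genotype effect differed between the temperatures by -5.10 for Dsg2 (adjusted p = 8.74e-05) and by -5.55 for Ly6d (adjusted p = 0.000449). With the lymphocyte covariate the cold changes were -5.47 for Dsg2, -4.66 for Ly6d and -4.15 for Lad1. The part of epithelial RNA in these differences was not tested.

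**Figure D5:**
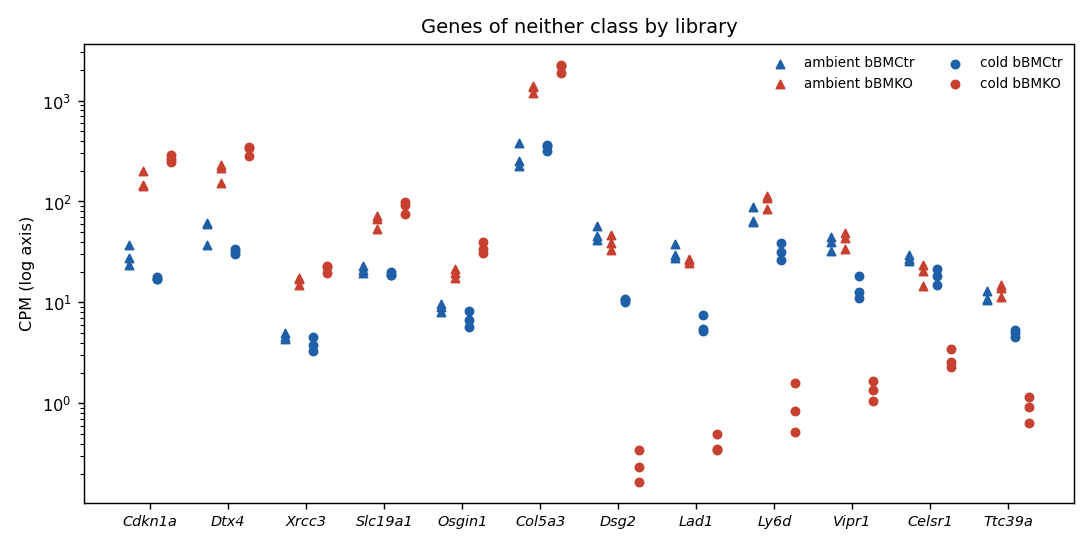
CPM on a log axis of 6 genes that rose and 6 that fell among the genes of neither class, in all 12 libraries. Triangles are ambient and circles cold libraries, blue is bBMCtr and red bBMKO. The genes on the left are higher in bBMKO at both temperatures. Those on the right passed the test in the cold, such as Dsg2 with 10.2 to 10.8 CPM in cold bBMCtr and 0.167 to 0.344 CPM in cold bBMKO, and did not pass it at ambient temperature.

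Matrix genes shifted in kind. Col5a3, a fibrillar collagen chain of fat cells, was at 357, 318 and 359 CPM in bBMCtr and 1864, 2217 and 2258 CPM in bBMKO, a change of 2.62 (SE 0.19, adjusted p = 3.81e-05). Col6a1, of the microfibrils that surround fat cells, rose by 1.29 (SE 0.12, adjusted p = 0.000159), and the basement membrane chains Col4a3 and Col4a4 rose by 2.03 and 1.63. Col6a4 went the other way, from 10.1, 10.2 and 7.42 CPM to 0.292, 0 and 0.111 CPM, as did Col12a1, a collagen on the surface of fibrils, from 20, 16.8 and 20.1 CPM to 6.89, 7.58 and 4.94 CPM. All 6 collagen genes were separated between the groups, and the log2 fold changes of the last 2 were -6.05 and -1.55. Of 20 fibrillar and other collagens 11 rose and 3 fell, and of 19 basement membrane genes 7 rose, against 9.67% of all genes higher and 13.1% lower. With the lymphocyte covariate 3 collagens rose and 3 fell, and 3 basement membrane genes rose. Scaled to fat cell identity genes 3 collagens rose and 4 fell.

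Of the matrix remodelling genes more rose than fell with TMM factors. The cross-linking enzyme Lox was at 106, 80 and 114 CPM in bBMCtr and 259.8, 299.9 and 301 CPM in bBMKO, a change of 1.52 (SE 0.15, adjusted p = 0.000194). Fibrillin-1 (Fbn1) rose by 1.63 and the membrane protease Mmp14 by 1.27. Tnc (tenascin C), a matrix protein of remodelling tissue, was at 42.2, 35.3 and 39 CPM and 9.23, 11.2 and 8.77 CPM and fell by 1.99 (adjusted p = 0.00147), and the hyaluronan receptor Cd44, which leukocytes also carry, fell by 1.55. The groups were apart in all of these. Of 35 genes of matrix remodelling 13 rose and 3 fell, against 9.67% of all genes higher and 13.1% lower. The counts were 4 and 4 with the lymphocyte covariate and 3 and 6 when scaled to fat cell identity genes. The laminin receptor integrin α7 (Itga7) rose by 1.07 (SE 0.13, adjusted p = 0.000736).

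The study's question ties Bmal1 to the actin-regulated factors MRTF and SRF. Srf itself had a log2 fold change of -0.34 (SE 0.13, adjusted p = 0.0742) with overlapping groups. Mkl1, the gene of MRTF-A, was at 72.5, 77.1 and 63.4 CPM in bBMCtr and 31.1, 36.5 and 32 CPM in bBMKO and fell by 1.10 (adjusted p = 0.00479), but had -0.44 and no call with the lymphocyte covariate. The non-muscle myosin Myh9, in fat cells and leukocytes alike, fell by 0.93 (adjusted p = 0.00078). The classical targets Vcl, Ctgf and Fhl2 had values of 0.26, -0.02 and -0.25 and none passed. Fhl1, another target that muscle fibres express strongly, rose by 1.25 (SE 0.38, adjusted p = 0.0296). Its change was 0.01 with the lymphocyte covariate, which also took the median of the skeletal muscle list from 1.30 to -3.05. Of 29 genes of SRF, MRTF and their known targets 1 rose and 6 fell, against 13.1% of all genes lower, with a median of -0.16. The number that fell was 2 with the lymphocyte covariate and 17 when scaled to fat cell identity genes.

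Lists that the study drew up on these samples are no independent evidence of their direction. Of its 19 matrix genes 14 fell and 1 rose, of its 16 MRTF and SRF targets 8 rose and 2 fell, and of its 19 genes of fat cell differentiation 16 rose and 1 fell. The second list holds genes of both directions, since at ambient temperature 11 of its genes were higher and 5 lower. The study's statement of down-regulation is about positive targets of MRTF and SRF. Genes of the second list that rose in the cold include Cdkn1a and Fst, the activin antagonist follistatin, at 1.37 (SE 0.12, adjusted p = 0.000104). With the lymphocyte covariate the counts were 13 lower for the matrix list, 5 higher and 1 lower for the MRTF and SRF list, and 9 higher and 1 lower for the differentiation list.

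Cell division genes fell in bBMKO. Of 27 genes 23 fell, with a median log2 fold change of -1.66, and with the lymphocyte covariate 20 fell, with a median of -2.04. Mki67, the marker of dividing cells, was at 40.8, 116 and 37.4 CPM in bBMCtr and 9.52, 11.1 and 8.43 CPM in bBMKO, a change of -2.74 (SE 0.45, adjusted p = 0.00287). Topoisomerase Top2a was at 20.4, 58.7 and 17.7 CPM and 4.91, 6.78 and 4.66 CPM and the replication helicase subunit Mcm2 fell by 1.45. In each of them bBMCtr replicate 2, which also had the highest lymphocyte mean of the cold libraries, was the highest, and the bBMKO libraries were all lower than any bBMCtr library. Without that library 18 of the 27 genes fell.

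Macrophage genes did not move as a group. Of 23 tested, 5 rose and 3 fell, against 9.67% of all genes higher and 13.1% lower, and the median was 0.21. Timd4, a receptor of long-lived resident macrophages, was at 126, 107 and 85.7 CPM in bBMCtr and 12.3, 21.4 and 13 CPM in bBMKO, a change of -2.77 (SE 0.70, adjusted p = 0.0157). Itgax (CD11c), shared with dendritic cells, fell by 2.01. Trem2, which marks lipid-laden macrophages, rose by 1.5 (SE 0.46, adjusted p = 0.0313), and the lysosomal glycoprotein Gpnmb by 1.03, or 0.66 without bBMKO replicate 1. The summed level of the macrophage list, which its most abundant genes dominate, was 12340 to 13950 CPM in bBMCtr and 15320 to 17640 CPM in bBMKO. The list includes Lpl, which is also in the fat cell identity list, so this sum is not a measure of macrophage RNA alone. Its mean log2 CPM, which weighs the genes alike, was 6.35, 6.66 and 6.19 in bBMCtr and 6.52, 6.52 and 6.32 in bBMKO, and overlapped. For MHC class II and dendritic cells 12 of 15 genes fell, but 1 did with the lymphocyte covariate and 8 without bBMKO replicate 1. Scaled to fat cell identity genes, 4 macrophage genes fell and the 5 higher calls were lost.

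The cold comparison and the ambient one share no libraries. At ambient temperature 598 genes were higher and 732 lower in bBMKO. The median log2 fold change of the lymph node class was -1.51 at ambient temperature against -3.03 in the cold, but most genes of the class were chosen on those ambient libraries, so the ambient value is no independent one. That of the fat cell class was 0.39 against 0.66. Of the clock genes, Npas2 changed by 5.52 at ambient temperature (adjusted p = 4.98e-07), Nr1d2 by -1.08 (adjusted p = 0.000208) and Dbp by -1.45 (adjusted p = 0.000603), and the interaction with temperature had an adjusted p of 0.501 for Nr1d2 and 0.718 for Dbp. A total of 118 genes passed the same rule for the interaction of genotype and temperature, and Npas2 was one of them at 1.18 (SE 0.27, adjusted p = 0.211).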

How the data were processed

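Total RNA of iWAT was sequenced as single reads. The authors aligned reads to mm10 with STAR and deposited raw counts per gene from HTSeq-count with GENCODE annotation, and a table of log2(FPKM + 0.1) values, made by the authors with limma and edgeR. The sources used here name no versions and no strand setting, so overlapping and antisense genes cannot be told apart. Here edgeR 4.0.16 (R 4.3.3) was run on the counts of all 12 libraries with TMM factors and 1 term for each of the 4 groups, and the cold bBMKO minus cold bBMCtr contrast was tested over 15413 genes. limma 3.58.1 on the deposited log2 FPKM and DESeq2 1.42.0 were alternatives. The scripts were tested on simulated data. No 2 libraries of a group were duplicates, since the chi-square per gene was 16.6 or more. Members and gene lists were chosen with earlier results of these data known. The genes named are, by class and direction, up to 10 of the smallest p among non-overlapping calls with a mean of at least 1 CPM in the higher group, up to 4 called genes of a list (2 where none was called), all clock genes and a fixed set of thermogenic, fat cell and SRF genes. Some genes that this rule selects are not reported here. With 3 libraries a group, precision rests on the spread between libraries.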

Additional observations from a re-analysis of the deposited data

Results flagged for a closer look

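For 10 of the genes named, the genotype effect differed between the cold and ambient temperature by edgeR's interaction test, with an adjusted p under 0.05. By Xist and Ddx3y the 6 libraries of a temperature share their main sex. Ambient bBMKO replicate 2, high in Xist, also had Ddx3y at 4.53 CPM, against 0.0483 CPM or less in the other ambient libraries. The study's legends name male mice for a heatmap of ambient libraries and female mice for a heatmap of both temperatures. These marker genes differ from the former at ambient temperature and from the latter in the cold. Ambient and cold mice also differ in their stated age, so temperature, sex and age cannot be told apart in these differences. Mammary epithelium genes were high in the ambient libraries alone.

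The difference between the log2 fold changes, cold minus ambient, was -5.10 for Dsg2 (adjusted p = 8.74e-05), -5.55 for Ly6d (adjusted p = 0.000449), -3.61 for Lad1 (adjusted p = 0.000548) and -3.46 for Vipr1 (adjusted p = 0.0027). It was -2.67 for Ttc39a (adjusted p = 0.00421), -2.22 for Celsr1 (adjusted p = 0.0295) and -1.27 for Tes (adjusted p = 0.0338). For the epithelial genes Ildr1 and St14 it was -3.35 (adjusted p = 0.00877) and -2.67 (adjusted p = 0.0338). In these 9 genes bBMKO was lower in the cold, and none of them passed the test at ambient temperature. For Rasef, a GTPase, the difference was 7.64 (adjusted p = 0.0128), and this value rests on 0, 1 and 1 counts in the cold bBMCtr libraries.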

How the results depend on the processing

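The counts of 1491 higher and 2022 lower genes stayed within 1.5-fold under DESeq2, RLE factors, TMM factors without lymph node genes, no filter, filterByExpr, the 6 cold libraries alone and the skeletal muscle covariate. They moved further in these settings: library size alone gave 761 higher genes, limma on log2 FPKM 781, scaling to fat cell identity genes 242 higher and 6997 lower, the lymphocyte covariate 591 higher and 822 lower, and an adjusted p under 0.05 with no fold minimum 2779 higher. With 1 cold library left out there were 1109 (without bBMCtr replicate 2) to 1771 (without bBMCtr replicate 3) higher and 1767 to 2083 lower genes. The labels do not say that replicate numbers pair the samples. Same-numbered libraries correlated at 0.143, 0.071 and -0.071 in their deviations from the group means. With 3 libraries a group such values cannot exclude a pairing. A fit with the replicate number as a block called 1322 higher and 1835 lower genes. The cause of these shifts was not tested. Alternatives for the interaction were chosen after seeing the data.

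Of 131 genes named, 127 or more kept direction and call with only the 6 cold libraries, under DESeq2, RLE factors and the block. With the lymphocyte covariate 102 did and 22 lost their call, and scaled to fat cell identity genes 93 did and 20 lost their call. Scaling to fat cell identity genes turned Rora (-0.47), Rorb (-0.13), Cipc (-0.59), Adipoq (-0.040), Pparg (-0.13), Cebpa (-0.18), Cebpb (-0.066), Prdm16 (-0.29), Ppargc1a (-0.24), Vcl (-0.39) and Ebf1 (-0.22) negative. Library size alone turned Rora (-0.050) and Cipc (-0.16), and limma Rora (-0.0167) and Cipc (-0.12). The lymphocyte covariate turned Cipc (-0.12), Vcl (-0.13) and Ctgf (0.67), and the muscle covariate Cipc (-0.0273) and Ctgf (0.050). Leaving out a cold library turned Cipc (-0.0042 to 0.12, lowest without bBMCtr replicate 1), Usp2 (-0.30 to 0.17, and above 0 without bBMCtr replicate 3 or bBMKO replicate 1), Lep (-0.53 to 0.24) and Ctgf (-0.47 to 0.21), both above 0 without bBMCtr replicate 3, bBMKO replicate 1 or bBMKO replicate 3. Apart from Adipoq and Cebpb, none of the genes that turned was called.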

Other observations

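Further genes were picked after their values were seen. The imprinted genes Peg3, Zim1 and Nap1l5 were all higher in cold bBMKO. Peg3, a zinc finger gene expressed from the paternal copy, was at 62.3, 46.2 and 98.1 CPM in bBMCtr and 726, 1011 and 910.1 CPM in bBMKO and rose by 3.68 (SE 0.27, adjusted p = 4.53e-05) on the log2 scale by edgeR. Its neighbour Zim1 was at 0.755, 1.27 and 2.67 CPM and 58, 93.3 and 72.5 CPM, and Nap1l5 rose by 2.90 (SE 0.25, adjusted p = 0.000112). No library of one group reached the other group in these genes, and at ambient temperature the changes were 3.03, 2.92 and 3.50. Klb, the co-receptor through which Fgf21 acts on fat cells, went from 20.8, 19.6 and 23.4 CPM to 223, 178 and 197 CPM and rose by 3.23 (SE 0.26, adjusted p = 8.51e-05). Rasef was at 0, 0.0469 and 0.0534 CPM (0, 1 and 1 counts) in bBMCtr and 14, 5.28 and 16.8 CPM (240, 92 and 302 counts) in bBMKO.

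A further 3 genes known from epithelia were lower in cold bBMKO. Mammary epithelium genes had a median of 0.60 with 2 of 17 lower, but the mean of this list was near the floor in the cold libraries. Its median was 0.0058 with the lymphocyte covariate and 0.002 when scaled to fat cell identity genes. Of 9 skin and hair follicle genes 1 was lower and 2 higher, against 13.1% and 9.67% of all genes. Whether epithelial RNA as a whole was lower was not tested. The transcription factor Ehf was at 5.99, 7.65 and 5.12 CPM in bBMCtr and 0.467, 0.344 and 0.555 CPM in bBMKO and fell by 3.76 (adjusted p = 0.000417). The membrane protease St14 fell by 2.76, from 7.14, 9.9 and 5.07 CPM to 1.23, 0.861 and 1.17 CPM, and Ildr1, a protein of tricellular junctions, by 3.50. With the lymphocyte covariate their changes were -4.34, -3.15 and -3.49.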
